A study of Mus musculus with 6 samples.

Results

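The 36 genes described here belong to homologous recombination and the Fanconi anaemia pathway, and they were chosen by gene name. All 36 were among the 41327 genes of the count table, and 35 of them were among the 13651 genes that passed the filter on low counts and were tested. RNA-seq of total RNA compared 3 libraries of the group Trp53_KO (genotype Trp53-/-) with 3 libraries of the group Trp53_WT (genotype Trp53+/+). All 6 came from the mouse line ID8, immortalized epithelial cells of the ovarian surface epithelium on the C57BL/6 background, which grew asynchronously without treatment. The labels do not say how Trp53 was deleted, whether a genotype is 1 clone, or whether replicates were separate cultures. The p-values below therefore rest on the spread among libraries whose origin is unknown, and that spread may be technical.

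Homologous recombination repairs a break through both strands of DNA by copying the sister chromatid. The broken ends are resected, the mediators BRCA1, PALB2 and BRCA2 prepare the exposed strand for exchange, and further factors such as XRCC2, XRCC3 and RAD54 help it to pair with the sister. The Fanconi anaemia pathway repairs crosslinks between DNA strands: its core complex adds ubiquitin to FANCD2 and FANCI, nucleases then unhook the crosslink, and recombination mends the resulting break. In ovarian epithelium these genes are known because inherited loss of BRCA1 or BRCA2 predisposes to ovarian cancer, and because cells without them are sensitive to PARP inhibitors.

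The libraries held 19574772, 16597529 and 18686479 counts in Trp53_KO and 15319956, 19954170 and 18485982 counts in Trp53_WT. Trp53 itself, the deleted gene, averaged 26.8 ± 2.4 CPM in Trp53_KO and 104 ± 6.4 CPM in Trp53_WT (SD, n = 3 each), where CPM is the counts-per-million scale with library totals scaled by the trimmed mean of M values (TMM). Cdkn1a, the cell cycle inhibitor p21 that p53 induces, averaged 1.6 ± 0.12 CPM in Trp53_KO and 41.0 ± 4.5 CPM in Trp53_WT. Replicate 1 of Trp53_WT stood apart: its counts gave a chi-square per degree of freedom of 29.7 and 29.2 against its replicates 2 and 3, which gave 2.10 against each other, and the 3 pairs of Trp53_KO libraries gave 4.56 to 9.51. The labelled epithelial type was read from Krt8 (492 CPM in Trp53_KO, 611 CPM in Trp53_WT) and Msln (1170 CPM in Trp53_KO, 1400 CPM in Trp53_WT), while Epcam was at 0 in all 6 libraries and Cdh1 stayed under 1 CPM. Of 10 such markers 9 were tested, and 4 were higher and 3 lower by the test described below. That is 77.8% of the 9, against 30.3% of all tested genes. Lrrn4 was farthest apart (65.5 CPM in Trp53_KO, 0.235 CPM in Trp53_WT). Of the markers of other cells, the 5 for fibroblasts summed to 694 to 848 CPM in Trp53_KO and 226 to 288 CPM in Trp53_WT. All 3 that were tested were higher, and Lum was at 0 in all libraries. The 7 for granulosa and theca cells summed to 24.1 to 26.8 CPM in Trp53_KO and 4.65 to 5.47 CPM in Trp53_WT. Of the 3 tested 2 were higher, and Foxl2, Cyp19a1 and Fshr were at 0. The 4 for endothelium summed to 1.65 to 2.35 CPM in Trp53_KO and 0.148 to 0.203 CPM in Trp53_WT. The 1 that was tested was higher, and Cdh5 and Kdr were at 0. The 6 for immune cells summed to 3.86 to 4.18 CPM in Trp53_KO and 4.86 to 5.20 CPM in Trp53_WT. Of these 4 were at 0, and the 1 that was tested was not called. The part of these markers in the results below was not tested. In bulk RNA, fewer cells of a kind or cycle phase and less RNA per cell cannot be told apart.

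The recombination and Fanconi genes changed about as much as other genes of their level, and they did not move one way. Brca2 and the core complex genes Fancm, Fance and Fanca fell in Trp53_KO, while Parp1, Nbn, Rbbp8 and Rad54l rose. A gene was called where edgeR's quasi-likelihood test gave an adjusted p (Benjamini-Hochberg over the 13651 genes) under 0.05. The 8 called members were 22.9% of the 35 tested, against 30.3% of all tested genes. The 4 that rose were 11.4% of the members, against 14.1% of all genes, and the 4 that fell were 11.4%, against 16.1%. Both shares lay somewhat below those of the whole table, a difference that was not tested. Among the 9750 genes with mean levels in the members' range of 4.36 to 259 CPM, 30.2% were called. The median log2 fold change of the members was -0.05, against -0.02 for all genes, and their median size regardless of sign was 0.17, equal to that of genes in the same range of levels. Values did not overlap between groups for 15 of the 35 members, where 46.0% of all genes showed no overlap. The summed level of the 36 genes was 2136, 2181 and 2118 CPM in Trp53_KO and 2188, 2170 and 2115 CPM in Trp53_WT, so the groups overlapped in the total.

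**Figure D1:**
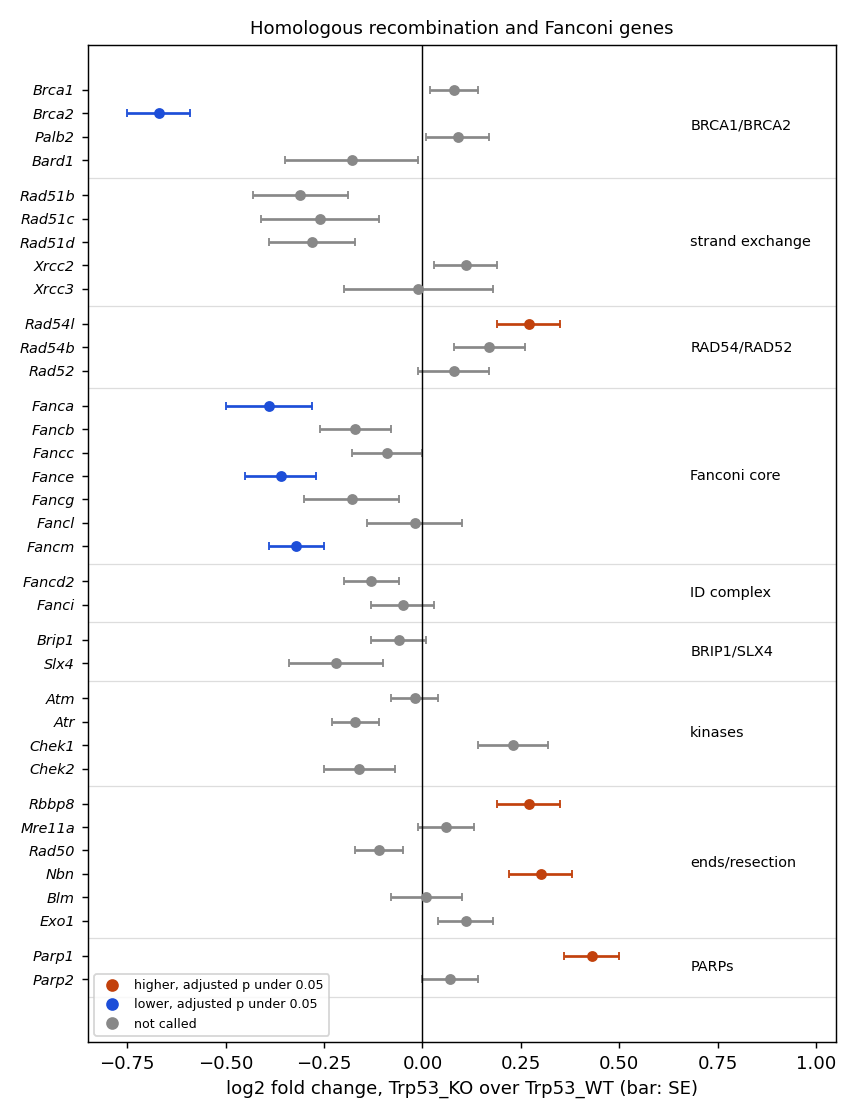
Log2 fold change of Trp53_KO over Trp53_WT for the 35 tested genes (x axis; bars are standard errors, n = 3 libraries per group), in rows by role, with called genes in colour. Brca2 lies farthest to the left at -0.67 and Parp1 farthest to the right at 0.43, and all 7 tested core complex genes lie left of 0.

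The upstream sequences of Brca2 (the largest fall), Parp1 (the largest rise) and Fanca (a core complex gene with a pair of CCAAT boxes) are shown because E2F letters and CCAAT boxes in such windows are textbook features of cell cycle genes. Each is the 250 bases before the RefSeq start on GRCm38.p6, read 5′ to 3′ on the gene's strand, with capitals marking the searched letters that were found. They lie at chr5:150522371-150522620 (plus strand) for Brca2, chr1:180568641-180568890 (plus strand) for Parp1 and chr8:123318577-123318826 (minus strand) for Fanca.
Brca2: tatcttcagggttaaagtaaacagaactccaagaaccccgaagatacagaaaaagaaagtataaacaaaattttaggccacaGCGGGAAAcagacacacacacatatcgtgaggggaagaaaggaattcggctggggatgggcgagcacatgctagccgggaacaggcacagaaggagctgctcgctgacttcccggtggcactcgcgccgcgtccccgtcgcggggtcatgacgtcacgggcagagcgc
Parp1: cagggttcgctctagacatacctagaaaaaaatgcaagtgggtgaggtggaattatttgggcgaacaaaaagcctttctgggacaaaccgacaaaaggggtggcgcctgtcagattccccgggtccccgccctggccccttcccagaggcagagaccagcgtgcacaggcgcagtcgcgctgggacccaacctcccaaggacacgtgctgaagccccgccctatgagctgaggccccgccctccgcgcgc
Fanca: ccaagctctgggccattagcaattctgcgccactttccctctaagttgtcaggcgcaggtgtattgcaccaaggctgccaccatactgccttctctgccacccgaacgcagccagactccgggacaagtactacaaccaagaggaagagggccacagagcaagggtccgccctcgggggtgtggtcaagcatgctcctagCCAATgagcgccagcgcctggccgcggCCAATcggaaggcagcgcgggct
The capitals in Brca2 are the E2F letters TTTCCCGC read on the other strand, 168 to 161 bases before the start. Those in Fanca are CCAAT, beginning 50 and 23 bases before the start. No searched letters were found in the Parp1 window.

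Windows from 250 bases before to 50 bases after the RefSeq start were matched for 28 of the 36 genes, and letters were searched on both strands. CCAAT was in the windows of 17 of the 28 (60.7%), against 41.1% of 27025 genes with a window and 43.5% of the 8830 of them that were tested. One of the E2F forms TTCGCGC, TTTGGCGC and TTTCCCGC was in 7 of the 28 (25.0%), against 3.51% of all genes and 7.06% of the tested ones. These were Bard1, Brca2, Brip1, Chek2, Fancg, Fancm and Rad51c. Of those 7, Brca2 and Fancm fell and the other 5 were not called. TTTGAA, the letters of the cell cycle homology region, was in Bard1 and Rad51b (7.14%, against 20.2% of all and 13.9% of tested genes). The p53 response element was in the windows of 0 of the 28 members, 0.074% of all genes and 0.0453% of tested genes. With shares so low, the 0 among 28 members tells nothing about them. TTCGCGC and TTTCCCGC were both present in Rad51c. These matches describe letters in a window and are not sites of binding.

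BRCA1 and its partner BARD1 form a ubiquitin ligase that acts at broken ends, PALB2 links BRCA1 to BRCA2, and BRCA2 prepares the resected strand for exchange. Of these 4 genes only Brca2 was called. Brca2 (chromosome 5, 150522630 to 150570329, plus strand) had 77.9, 83.6 and 77.8 CPM in Trp53_KO, against 141, 124 and 117 CPM in Trp53_WT. Every Trp53_KO library was below every Trp53_WT library, and replicate 1 was the highest of Trp53_WT. Brca2 fell by 0.67 on the log2 scale, with an SE of 0.08, a change of -37.3% in level (edgeR adjusted p = 2.0e-04). By p-value it ranked 972nd of the 13651 genes. The value held without replicate 1 of Trp53_WT, at -0.60 (adjusted p = 1.2e-06).

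Brca1 averaged 176 ± 4.5 CPM in Trp53_KO and 167 ± 5.2 CPM in Trp53_WT (SD, n = 3 each), and its groups overlapped. Its log2 fold change was 0.08 ± 0.06 (SE), with an edgeR adjusted p of 0.37. Taken per length of merged exon within a library, which needs no scaling between libraries, Brca2 stood at 0.273, 0.294 and 0.285 of Brca1 in Trp53_KO, against 0.546, 0.450 and 0.438 of Brca1 in Trp53_WT. The ratio did not overlap between groups. Palb2 averaged 29.6 and 27.8 CPM in Trp53_KO and Trp53_WT and was not called (adjusted p = 0.45). Bard1 had 52.8, 54.7 and 52.8 CPM in Trp53_KO and 81.2, 52.1 and 48.9 CPM in Trp53_WT. Its groups overlapped: replicate 1 of Trp53_WT was high, and the other two were slightly below Trp53_KO. The log2 fold change of Bard1 was -0.18 ± 0.17 (adjusted p = 0.46), and 0.08 without that library.

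**Figure D2:**
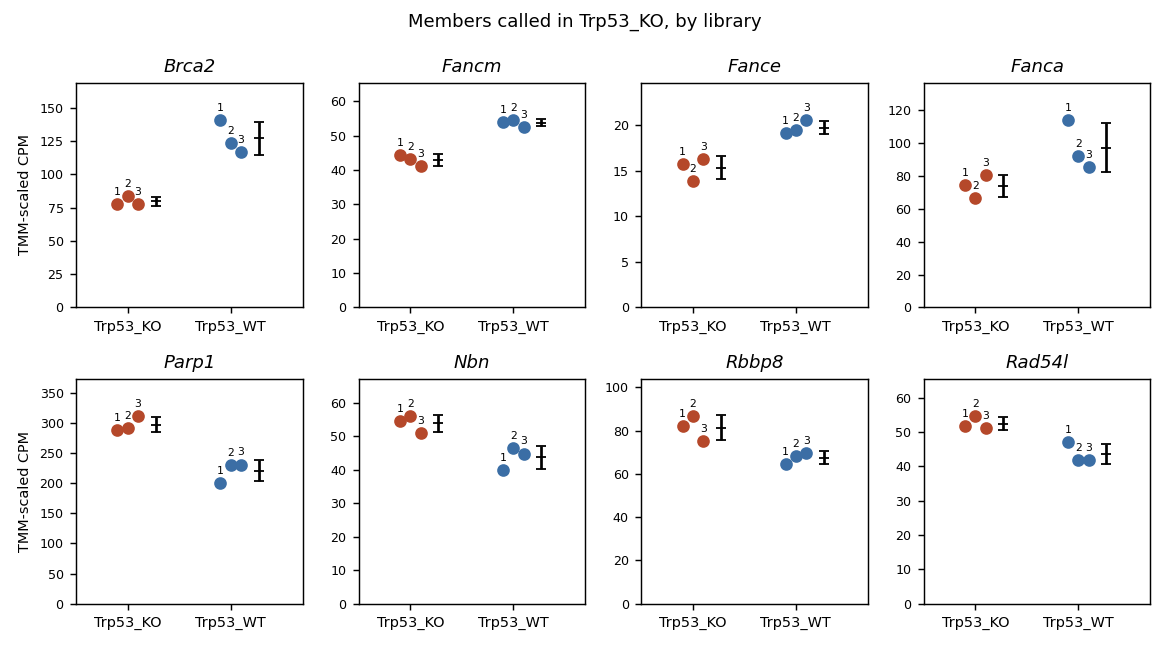
TMM-scaled counts (CPM) of the 8 called genes in each library (points, labelled by replicate number), with the mean and SD of each group beside them (n = 3). In each panel the Trp53_KO points and the Trp53_WT points do not overlap, with Brca2 at 77.8 to 83.6 CPM in Trp53_KO and 117 to 141 CPM in Trp53_WT.

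RAD51B, RAD51C, RAD51D, XRCC2 and XRCC3 are related proteins that form small complexes and promote strand exchange, and 0 of the 5 were called by edgeR, DESeq2 or limma-voom. Before adjustment 2 of the 5, Rad51b and Rad51d, had an edgeR p under 0.05. Rad51d had 19.3, 19.4 and 21.3 CPM in Trp53_KO and 20.9, 26.0 and 26.2 CPM in Trp53_WT. Replicate 1 of Trp53_WT fell among the Trp53_KO values, and the other Trp53_WT libraries were above them. The log2 fold change of Rad51d was -0.28 ± 0.11 (adjusted p = 0.070), and it was called without replicate 1 of Trp53_WT, at -0.38 (adjusted p = 0.0023). Rad51b had 3.93, 3.86 and 3.88 CPM in Trp53_KO, against 4.79, 4.85 and 4.83 CPM in Trp53_WT. The groups did not overlap, but at 214 counts in all in Trp53_KO and 259 in Trp53_WT the difference of -0.31 ± 0.12 did not pass the test (adjusted p = 0.089). Rad51c (4.60 and 5.53 CPM in Trp53_KO and Trp53_WT), Xrcc2 (40.0 and 37.0 CPM) and Xrcc3 (4.48 and 4.54 CPM) had adjusted p-values of 0.22, 0.33 and 0.98.

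RAD54 is a motor protein that acts on the sister duplex during strand exchange, RAD54B is its relative, and RAD52 anneals strands. Rad54l (chromosome 4, 116094264 to 116123690, minus strand) had 51.8, 54.6 and 51.1 CPM in Trp53_KO, against 47.0, 41.8 and 42.0 CPM in Trp53_WT. The Trp53_KO libraries were all higher, and replicate 1 of Trp53_WT came nearest to them. Rad54l rose with a log2 fold change of 0.27 ± 0.08 (edgeR adjusted p = 0.029), but leaving out any library other than replicate 1 of Trp53_WT gave adjusted p-values of 0.056 to 0.099. The exons of Rad54l share 1184 bases with Lrrc41 on the opposite strand, which also rose (89.4 CPM in Trp53_KO, 73.2 CPM in Trp53_WT; log2 fold change 0.29 ± 0.07, adjusted p = 0.0098). The strand setting of the counting is not given in the sources used here, so reads of this stretch may be shared between the genes. Rad54b averaged 28.2 and 25.1 CPM in Trp53_KO and Trp53_WT, and Rad52 21.1 and 20.0 CPM. Neither was called (adjusted p = 0.21 and 0.55).

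The Fanconi core complex is the ubiquitin ligase of the pathway: FANCL is its catalytic subunit, FANCM binds the stalled fork, FANCE contacts FANCD2, and FANCA, FANCB, FANCC and FANCG hold the assembly. Of its 7 tested genes 3 fell (42.9%, against 16.1% of all tested genes) and 0 rose (14.1% of all genes), and the log2 fold changes of all 7 were below 0, between -0.39 and -0.02. Fancl turned above 0 without replicate 1 of Trp53_KO (0.09) or replicate 2 of Trp53_WT (0.07). The summed level of the complex, with Fancf, was 218.6, 208.8 and 218.5 CPM in Trp53_KO and 277.5, 261.1 and 248.0 CPM in Trp53_WT. The sums did not overlap between groups, as was the case for the levels of 46.0% of all genes.

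Fancm (chromosome 12, 65075603 to 65132058, plus strand) had 44.5, 43.3 and 41.1 CPM in Trp53_KO, against 54.1, 54.6 and 52.6 CPM in Trp53_WT. The groups lay clearly apart, with little spread in either. Fancm fell by 0.32 on the log2 scale (SE 0.07, edgeR adjusted p = 0.0071). Fance (chromosome 17, 28313519 to 28326572, plus strand) had 15.8, 13.9 and 16.3 CPM in Trp53_KO, against 19.2, 19.5 and 20.6 CPM in Trp53_WT, again without overlap. Fance fell by 0.36 (SE 0.09, adjusted p = 0.015), and lost the call without replicate 1 of Trp53_KO (0.054) or replicate 3 of Trp53_WT (0.069). Fanca (chromosome 8, 123268300 to 123318576, minus strand), whose CCAAT boxes are printed above, had 74.5, 66.6 and 80.4 CPM in Trp53_KO, against 114, 92.1 and 85.5 CPM in Trp53_WT. Its groups did not overlap, but the highest Trp53_KO library was close to the lowest Trp53_WT library, and replicate 1 of Trp53_WT was far above the others. Fanca fell by 0.39 (SE 0.11, adjusted p = 0.027). The fall was 0.27 without replicate 1 of Trp53_WT (adjusted p = 0.013), and the call was lost without replicate 1 or replicate 2 of Trp53_KO (0.078 and 0.096). Fanca shares 920 exon bases with Zfp276 on the opposite strand, which was not called (-0.08 ± 0.08).

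The remaining core genes were not called. Fancb averaged 45.8 and 51.5 CPM in Trp53_KO and Trp53_WT, Fancc 11.2 and 11.9 CPM, Fancg 12.1 and 13.8 CPM and Fancl 14.0 and 14.2 CPM, with adjusted p-values of 0.18 to 0.92. Fancf, a gene with 1 exon that encodes an adaptor of the complex, was too low to be tested. It had 0 counts in each Trp53_KO library and 2, 2 and 4 counts in the Trp53_WT libraries. With Trp53_KO set to a floor of 3 counts over its 3 libraries and the 8 counts of Trp53_WT taken as they are, the level was 2.72-fold lower in Trp53_KO. The floor covers the counting error of the 0 counts only. The error of the 8 counts is left out, so the value is not a lower limit.

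**Figure D3:**
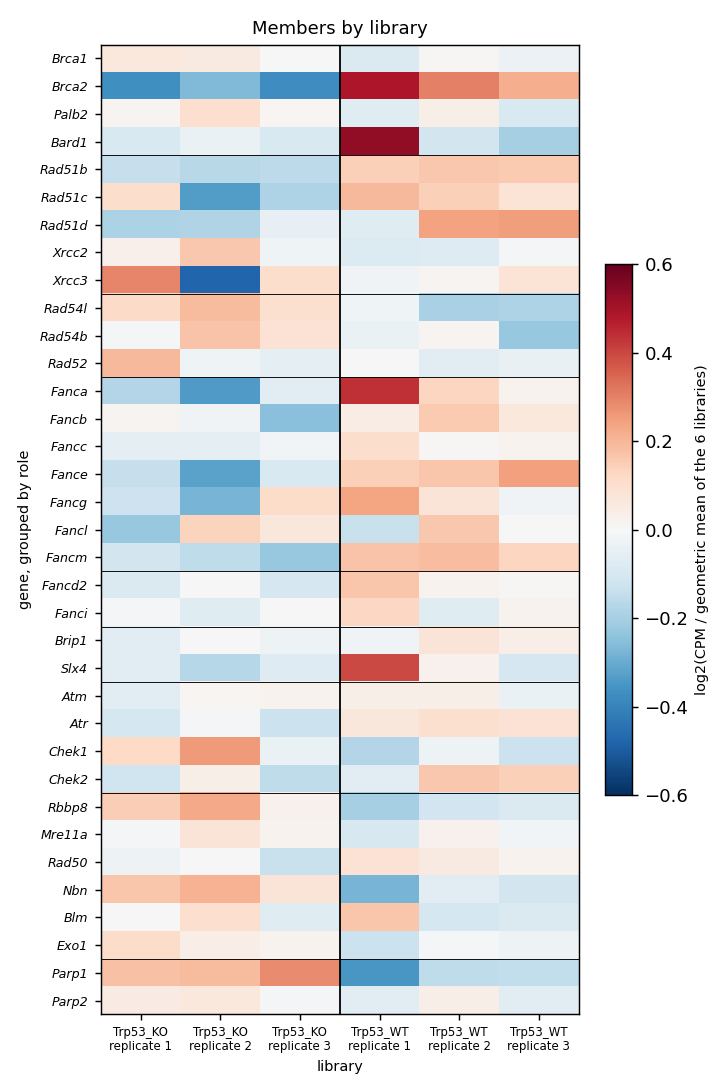
Level of each tested gene (rows, grouped by role) in each of the 6 libraries (columns), as log2 of its CPM over the geometric mean of the libraries. Brca2 and the core complex rows Fanca, Fance and Fancm are low in all 3 Trp53_KO columns. Replicate 1 of Trp53_WT differs from its group in Bard1, Slx4 and Fanca, which are high there. Rad51d, Chek2, Fancl, Parp1 and Nbn are low there.

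FANCD2 and FANCI are the clamp that the core complex modifies, BRIP1 is a helicase that binds BRCA1, and SLX4 is the scaffold that brings nucleases to the crosslink. By edgeR, DESeq2 and limma-voom 0 of the 4 were called, and 0 had an unadjusted edgeR p under 0.05. Fancd2 averaged 73.0 ± 2.7 CPM in Trp53_KO and 79.9 ± 5.0 CPM in Trp53_WT, without overlap but with an edgeR adjusted p of 0.22. Fanci (51.2 and 53.1 CPM in Trp53_KO and Trp53_WT) and Brip1 (73.4 and 76.6 CPM) overlapped between groups. Slx4 had 50.3, 46.8 and 49.9 CPM in Trp53_KO and 69.3, 53.6 and 49.1 CPM in Trp53_WT. As with Bard1, replicate 1 of Trp53_WT was the high value, and the log2 fold change of -0.22 was -0.07 without it.

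The kinases ATM and ATR sense breaks and stalled forks, and they act through CHEK2 and CHEK1 to halt the cell cycle. By edgeR, DESeq2 and limma-voom 0 of the 4 were called, and 2, Atr and Chek1, had an unadjusted edgeR p under 0.05. Atr had 132, 141 and 130 CPM in Trp53_KO, against 149, 152 and 151 CPM in Trp53_WT. These did not overlap, and the log2 fold change was -0.17 ± 0.06 (adjusted p = 0.070). Atr was called without replicate 2 of Trp53_KO (0.048) or replicate 1 of Trp53_WT (0.038). Chek1 had 51.4, 56.6 and 46.1 CPM in Trp53_KO and 41.9, 46.4 and 43.3 CPM in Trp53_WT. Replicate 3 of Trp53_KO lay within the range of Trp53_WT, and Chek1 had a log2 fold change of 0.23 ± 0.09 (adjusted p = 0.095), or 0.30 and a call without that library (0.048). Chek2 had 31.8, 35.4 and 31.1 CPM in Trp53_KO and 32.9, 38.7 and 38.1 CPM in Trp53_WT. The groups overlapped (log2 fold change -0.16 ± 0.09, adjusted p = 0.22), and Chek2 was called without replicate 1 of Trp53_WT (-0.23, adjusted p = 0.036). Atm averaged 114 and 116 CPM in Trp53_KO and Trp53_WT (adjusted p = 0.81).

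MRE11, RAD50 and NBN form the complex that binds broken ends, RBBP8 (CtIP) starts their resection with it, and EXO1 and BLM extend it. Here 2 of 6 genes rose and 0 fell, where 14.1% of all genes rose and 16.1% fell. Nbn (chromosome 4, 15957925 to 15992589, plus strand) had 54.4, 55.9 and 51.0 CPM in Trp53_KO, against 39.9, 46.4 and 44.8 CPM in Trp53_WT. The groups did not overlap, and replicate 1 of Trp53_WT was the lowest library. Nbn rose with a log2 fold change of 0.30 ± 0.08 (edgeR adjusted p = 0.024), and lost the call without replicate 1 (0.086) or replicate 2 (0.075) of Trp53_KO or replicate 3 of Trp53_WT (0.053). Rbbp8 (chromosome 18, 11633276 to 11745221, plus strand) had 82.0, 86.6 and 75.3 CPM in Trp53_KO, against 64.4, 68.4 and 69.8 CPM in Trp53_WT, also without overlap. Rbbp8 rose by 0.27 ± 0.08 (adjusted p = 0.027), and 4 of the 6 fits that each left out a library gave adjusted p-values from 0.050, just past the threshold before rounding, to 0.091. The partners of NBN in the end-binding complex were not called. Mre11a averaged 97.7 and 93.9 CPM in Trp53_KO and Trp53_WT (adjusted p = 0.56), and Rad50 129 and 139 CPM (0.24). The level of Nbn per length was 0.880, 0.886 and 0.886 of that of Rad50 in Trp53_KO and 0.599, 0.708 and 0.699 of it in Trp53_WT. Exo1 averaged 87.1 and 80.5 CPM in Trp53_KO and Trp53_WT, and Blm 50.4 and 49.9 CPM, with adjusted p-values of 0.25 and 0.92.

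PARP1 and PARP2 add poly(ADP-ribose) to proteins at DNA breaks, and PARP1 does most of this work. Parp1 (chromosome 1, 180568924 to 180601254, plus strand) had 289, 292 and 311 CPM in Trp53_KO, against 201, 230 and 231 CPM in Trp53_WT. All Trp53_KO libraries were higher, and replicate 1 of Trp53_WT was the lowest. Parp1 rose with a log2 fold change of 0.43 ± 0.07, a level 34.8% higher in Trp53_KO (edgeR adjusted p = 0.0014), and with 0.37 without that library (1.4e-04). Parp2 averaged 40.6 ± 1.2 CPM in Trp53_KO and 38.8 ± 1.6 CPM in Trp53_WT (SD, n = 3 each; adjusted p = 0.54). Per length, Parp1 stood at 4.82, 4.85 and 5.43 times Parp2 in Trp53_KO and at 3.65, 3.88 and 4.19 times Parp2 in Trp53_WT, without overlap. Brca2, Fancm and Parp1 were called in all 13 alternative fits, and the other 5 called genes lost their call in 2 to 6 of them.

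Per kilobase of merged exon, Parp1 was the highest of the 36 genes, at 56.1 CPM per kb in Trp53_KO and 41.8 CPM per kb in Trp53_WT. In Trp53_KO, Rad50, Nbn, Brca1 and Mre11a followed, at 16.5 to 24.0 CPM per kb, and these 4 were at 15.8 to 25.9 CPM per kb in Trp53_WT, where Fancb (17.3 CPM per kb) was above Mre11a. Brca2 stood 21st in Trp53_KO, at 5.85 CPM per kb, against 9.31 CPM per kb in Trp53_WT. The lowest tested genes were Rad51b, Rad51c, Fancc and Xrcc3, at 1.04 to 1.63 CPM per kb in Trp53_KO and 1.26 to 1.65 CPM per kb in Trp53_WT. Nbn was above Brca1 in Trp53_KO (21.2 and 20.6 CPM per kb) and below it in Trp53_WT (17.3 and 19.6 CPM per kb). In Trp53_KO that gap was smaller than the SD of Nbn between libraries.

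**Figure D4:**
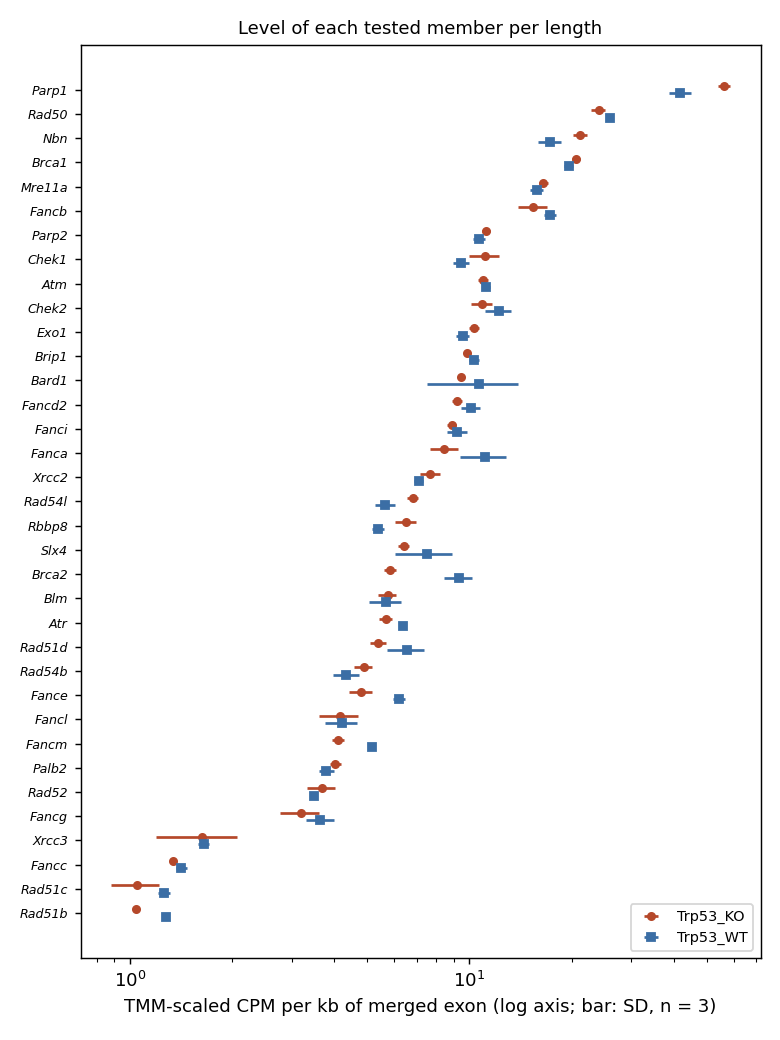
Mean level of the 35 tested genes per kilobase of merged exon (log x axis; bars are SD, n = 3 libraries), in the order of Trp53_KO. Parp1 is at the top in both groups, at 56.1 and 41.8 CPM per kb in Trp53_KO and Trp53_WT, and Brca2 shows the widest gap between the groups on this log scale.

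The authors' deposited table of repeats gives a log2 fold change and FDR for repeat loci by read direction, and it offers a second view of these genes through the repeats in their introns. Of 2888 rows of the authors' deposited table that lie in the 36 genes and read in their direction, 2 were higher and 1 lower at an FDR under 0.05, against 0.388% higher and 0.284% lower of all 773731 rows. The 2 higher rows of the authors' deposited table are B2_Mm1t elements, short interspersed repeats, in introns of Brip1 (chromosome 11, 86181925 to 86182117; 1.72) and Fanci (chromosome 7, 79436787 to 79436971; 1.30). The lower row of the authors' deposited table is a MER20 DNA transposon in an intron of Rad51d (chromosome 11, 82889386 to 82889556; -3.60). Against the gene's direction, the authors' deposited table has 5 higher rows in an intron of Rbbp8 (chromosome 18, 11642542 to 11647951), with values of 1.09 to 1.93. All 5 belong to adjoining pieces of a VL30 retrovirus-like element, MMVL30-int, RLTR6-int and RLTR6_Mm. A B2_Mm1t element read against Rad51c was also higher in the authors' deposited table (2.17). Over both read directions 8 of 3087 rows of the authors' deposited table were higher, against 0.388% of all rows.

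The intron rows followed the direction of the counts for 7 of the 8 called genes. In the authors' deposited table the median of the intron rows read in the gene's direction was -0.49 for Brca2, with 41 of 61 rows below 0, and -0.45 for Fancm, -0.39 for Fance and -0.30 for Fanca. The same median in the authors' deposited table was 0.60 for Parp1, with 37 of 43 rows above 0, 0.25 for Nbn and 0.29 for Rbbp8. Rad54l was the exception, at 0.001 over 33 rows of the authors' deposited table. The counts of Brca1 were not called, yet its intron rows in the authors' deposited table had a median of 0.49, with 103 of 138 above 0. Among other genes that were not called, the authors' deposited table gave intron medians of -0.5 for Xrcc3, -0.42 for Rad51d and 0.43 for Chek1. Over 35 genes, the count-based fold change and the intron median of the authors' deposited table had r = 0.67 and rho = 0.63, and 25 had the same sign (71.4%). Over all 7737 tested genes with intron rows these were r = 0.81, rho = 0.68 and 72.8%, and both measures come from the same 6 libraries. Without Brca2 and Parp1 the r over the remaining 33 genes was 0.55. These are correlations across genes, which are not independent replicates.

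**Figure D5:**
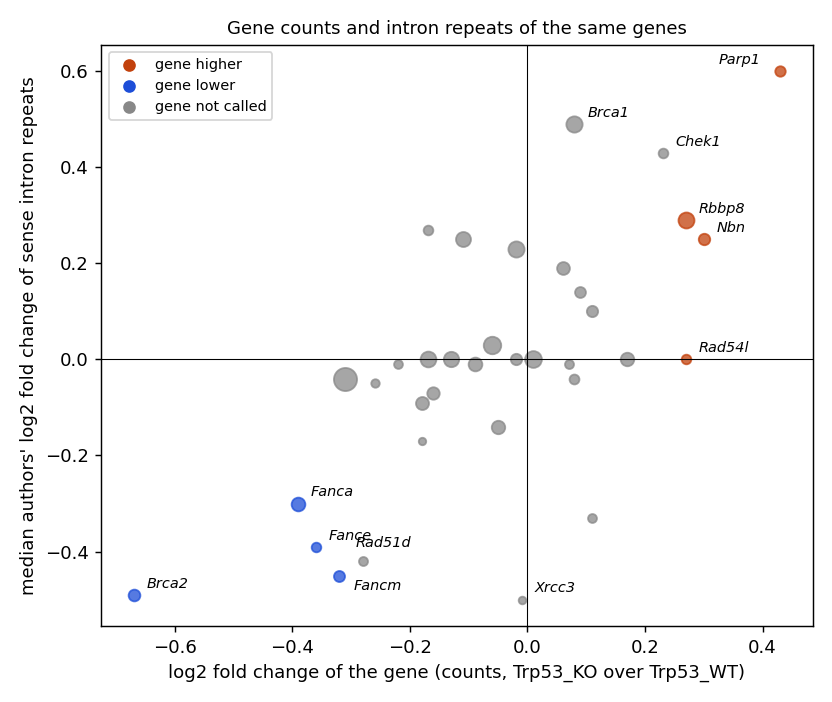
Log2 fold change of each gene from its counts (x axis) against the median log2 fold change of the intron repeat rows read in its direction, from the authors' deposited table (y axis), for 35 genes, with point area growing with the number of rows. Called genes are in colour: Parp1 is at the upper right (0.43 and 0.60), Brca2 at the lower left (-0.67 and -0.49), and Brca1 lies high with a count-based value of 0.08.

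Further genes of the same pathways were read from lists of 83 symbols, of which 73 were in the table and all 73 were tested. Of these, 9 rose and 1 fell by edgeR's test (13.7% called, against the 30.3% above), with a median log2 fold change of 0.02. The 9 were 12.3% of the 73, where 14.1% of all genes rose, and the 1 was 1.37%, where 16.1% fell. Among 19 Fanconi partners only Faap20 was called. It encodes a small ubiquitin-binding subunit that holds FANCA in the core complex. Faap20 had 15.0, 12.3 and 13.6 CPM in Trp53_KO, against 6.95, 7.52 and 7.83 CPM in Trp53_WT, without overlap. It rose with a log2 fold change of 0.87 ± 0.11 (adjusted p = 3.0e-04), where Fanca fell. Among 24 recombination partners, Rpa2, a subunit of the protein that coats single strands (0.37 ± 0.09), Bccip, a BRCA2-binding protein (0.30 ± 0.10), and the nuclease gene Dna2 (0.27 ± 0.09) rose, with adjusted p-values of 0.010, 0.041 and 0.047. The helicase gene Wrn fell (-0.38 ± 0.09, adjusted p = 0.0096). Among 15 checkpoint partners 4 were called (26.7%, against 30.3% of all genes). All 4 rose, where 14.1% of all genes rose, a difference that was not tested. They were Timeless (0.30 ± 0.07), Hus1 (0.33 ± 0.08), Clspn (0.26 ± 0.08) and Cdc25a (0.24 ± 0.08), with adjusted p-values of 0.0092 to 0.040. Of 15 partners at the BRCA1-A complex and 53BP1, only Rif1, which limits resection, was called (0.31 ± 0.08, adjusted p = 0.015).

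Cell cycle lists were read beside these values, since many of the members are used in S phase. Of 32 genes of DNA replication 4 rose and 2 fell (18.8% called, against 30.3% of all genes), their median log2 fold change was 0.01, and the summed level was 5581, 5597 and 5652 CPM in Trp53_KO and 5323, 5455 and 5563 CPM in Trp53_WT. Those sums did not overlap between the groups, but the lowest of Trp53_KO (5581 CPM) was close to the highest of Trp53_WT (5563 CPM). The levels of 46.0% of all tested genes did not overlap either. Of 23 genes of mitosis 2 rose and 0 fell (8.70% called), with a median of 0.03, and their sums overlapped. The part of these lists in the members' values was not tested.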

How the data were processed

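RNA-seq of total RNA was read from 6 libraries. The submitters' processing notes name STAR, featureCounts, edgeR and the build mm10. Their versions, settings, strand mode and annotation were not given in the sources used here. Per the file headers and values, the deposited gene table holds raw counts by symbol, as whole numbers. The authors' deposited table of repeats holds fold changes, taken as log2 because 550 rows in exons had a median ratio of 1.028 to the gene's own value, and FDRs, which are p-values adjusted for multiple tests. The suffix of its rows was taken as read direction, since it matched the gene's strand for 88.0% of 38905 exon rows.

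Counts were filtered with filterByExpr, scaled by TMM and tested with edgeR 4.0.16 (glmQLFit, glmQLFTest) in R 4.3.3 over genotype alone, with Benjamini-Hochberg adjustment over 13651 genes and a threshold of 0.05. Each SE is the log2 fold change divided by the root of F and is approximate. The procedure was tested on simulated data. Of 100 genes changed by 0.5 on the log2 scale 47 were called, and of 100 changed by 1.0, 85 were called. There was 1 call among the unchanged genes. A member that was not called may therefore still have changed. The biological coefficient of variation was 9.75%, and the median SE of the tested members was 0.083. Gene positions and merged exons came from GENCODE M21 on GRCm38, and promoters from RefSeq on GRCm38.p6. No pair of replicates agreed within sampling noise. Depths are given with the results. The floor used for Fancf covers the counting error of its 0 counts only.

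Named genes were all members, in full where called in any fit, and called genes of the other lists, up to 6 per list; a listed gene is not reported here. The members and lists were chosen with earlier results of these data known. Alternatives were RLE and upper quartile scaling, other low-count filters, a replicate block, DESeq2 1.42.0, limma-voom (limma 3.58.1), leaving out each library, and a threshold of 0.01.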

Additional observations from a re-analysis of the deposited data

How the results depend on the processing

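The members' calls stayed at 4 higher and 4 lower with other scalings, DESeq2, limma-voom and a filter on mean CPM, and keeping every gene with at least 1 count added Fancf to those lower. At an adjusted p under 0.01 there were 1 higher and 2 lower, and 2578 calls among all genes instead of 4130. Leaving out each library gave 1 to 4 members higher and 2 to 7 lower, with 2977 to 4984 calls in all. Without replicate 1 of Trp53_KO 1 was higher and 2 lower, and without replicate 2 of Trp53_KO or replicate 3 of Trp53_WT 1 was higher. Without replicate 2 of Trp53_WT 2 were higher, and without replicate 1 of Trp53_WT 7 were lower. These fits have fewer libraries, and why single libraries matter was not tested. With a replicate block 3 members were higher and 4 lower, and 3806 genes were called. The labels do not say whether same-numbered libraries belong together. Such libraries had deviations correlated at -0.019, 0.190 and -0.139, and not every library correlated best with its own number. With 3 libraries per group these correlations cannot decide whether the numbers mark pairs. The members' median lay between -0.07 and -0.03. Counting repeat rows of the authors' deposited table in either read direction gave 8 higher of 3087 rows instead of 2 of 2888. Of 455 values of single genes, 433 kept their side of the threshold, 17 lost a call and 5 gained one. No called value changed sign, and 12 values that were not called in either fit did. At the lowest levels, such as Fancf, depth limits what can be seen.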

Other observations

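Genes of other repair pathways were read in the same edgeR test, and 6 of 53 rose and 5 fell (20.8% called, against 30.3% of all tested genes). In end joining, which rejoins broken ends without a template, 0 of 11 rose and 2 fell (18.2%, close to the 16.1% of all genes that fell). Prkdc, the catalytic subunit of DNA-dependent protein kinase, had 33.9, 33.7 and 34.6 CPM in Trp53_KO, against 60.3, 52.6 and 50.0 CPM in Trp53_WT, and fell by 0.67 on the log2 scale (SE 0.09, adjusted p = 2.9e-04). Xrcc5, which encodes the Ku80 protein that loads this kinase on ends, had 41.9, 45.7 and 40.5 CPM in Trp53_KO, against 60.6, 67.6 and 67.0 CPM in Trp53_WT, and fell by 0.61 (SE 0.08, adjusted p = 3.6e-04). Both falls are about the size of that of Brca2, and neither gene's groups overlapped. In base excision, the glycosylase genes Neil2 (2.28 ± 0.17, adjusted p = 6.6e-06), Tdg (0.45 ± 0.08, 0.0024) and Ung (0.41 ± 0.12, 0.033) rose, and Neil3 (-0.62 ± 0.16, 0.017) and Parp3 (-0.44 ± 0.11, 0.012) fell. Neil2 was low, at 8.91 ± 0.95 CPM in Trp53_KO and 1.86 ± 0.38 CPM in Trp53_WT (SD, n = 3 each). In mismatch repair only Mlh3 was called of 7 genes (0.95 ± 0.10, adjusted p = 6.7e-05). In nucleotide excision Ercc5 fell (-0.55 ± 0.07, adjusted p = 2.8e-04), and Ercc6 (0.37 ± 0.07) and Rad23b (0.28 ± 0.08) rose.

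Replicate 1 of Trp53_WT was the highest of the 6 libraries for 12 of the 35 tested members and the lowest for 8. Replicate 2 of Trp53_KO was nearly as often extreme, the highest for 9 and the lowest for 8. The remaining libraries were the highest for 1 to 7 and the lowest for 3 to 7. The level in replicate 1 of Trp53_WT over the mean of the other Trp53_WT libraries was 1.61 for Bard1, 1.35 for Slx4 and 1.28 for Fanca, and 0.799 for Rad51d. Among the partner genes this ratio was 1.46 for Dclre1b, 1.42 for Mdc1 and 1.36 for Trp53bp1. Other partner genes were low in that library, at 0.614 for Apitd1, 0.722 for Rmi2 and 0.725 for both Sfr1 and Nabp2. Over all 13651 tested genes the ratio was at least 1.5 for 8.18%, with a median of 0.996. Groups of 3 libraries are too small for a test of outlying values, and what sets this library apart was not tested.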
